A study of Mus musculus with 32 samples.

Results

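The synovium is the soft lining of the joint, made of fibroblasts, macrophages, vessels and fat. In the deposited synovium table, 94 of 1178 genes were raised in the MMS D14 group and lay near the Control level in the groups R1 and R2, and these 94 members are described here. They were chosen by their measured values. For each gene, L is log2(group mean + 1) minus log2(Control mean + 1) in FPKM, a level scaled to transcript length and library size. A member had an L of at least 1 in MMS D14, and a mean L over R1 and R2 of at most 0.25 of its L in MMS D14. Of the 296 genes with an L of at least 1 in MMS D14, 202 stayed above that limit in R1 and R2 and were no members. The values of MMS D14, R1 and R2 against Control therefore chose the members and are given without a test.

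The study measured RNA in bulk synovium and cartilage of C57BL/6 mice, with a Control group and groups of an MMS model. The 6 synovium groups are Control, R1, R2, MMS D3, MMS D7 and MMS D14, with 3 libraries each. The cartilage groups are the same with MMS D28 added, and hold 2 libraries each. In the labels MMS, R1 and R2 are left as abbreviations; they give no unit for the D numbers, and state no age, sex or pooling. They also do not say that replicates came from separate animals, so p-values measure only the spread between these libraries. In bulk tissue, more cells of a type and more RNA per cell cannot be told apart.

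Depth is unknown, since the tables hold no counts, and both list selected genes. Replicate 3 of R2, Control and each MMS group stood apart, with Gm2023 at 1.71 to 3.36 FPKM in these 5 libraries and at 12.6 to 56.2 FPKM in the other 13. Calls in synovium that ended without these 5 libraries are named beside the result. Of 3 genes known from the synovial lining, Clic5 and Hbegf are in the table and Prg4 is not, with Clic5 at 102 to 135 FPKM in Control, 38.0 to 48.0 in MMS D14 and 126 to 155 in R1. Hbegf was at 153 to 169 FPKM in Control and 95.4 to 115 in MMS D14. It then lay above Control, at 242 to 295 in R1 and 249 to 317 in R2. The summed level of 23 of 24 listed adipocyte markers was 41080 to 49239.1 FPKM in Control, 7306.38 to 12403.4 in MMS D14, and 20543.5 to 22910.4 in R2. Summed endothelial and mural markers (5 of 26) were at 184 to 210.0 FPKM in Control, 85.8 to 91.5 in MMS D14 and 172 to 178 in R2. Summed macrophage and osteoclast markers (3 of 37) were at 324 to 466 FPKM in Control, 137 to 168 in MMS D14 and 244 to 257 in R2. Inside these sums, Apln of the endothelial list and Ms4a7 of the macrophage list had an L of at least 1 in MMS D14. The other measured genes of both lists did not. Summed tendon markers (6 of 10) moved the other way, from 554 to 674 FPKM in Control and 833 to 1702 in MMS D3 to 4009 to 5881 in MMS D14, with 1307 to 1647 in R1 and 1027 to 1816 in R2. Of 24 lymphocyte markers 0 are in the table. The part of these markers in the members' rise was not tested.

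Most members belong to cell division or to the extracellular matrix. A dividing cell makes nucleotides and copies its DNA in S phase, then condenses its chromosomes, pulls them apart on the spindle and divides its cytoplasm. The matrix is secreted, cross-linked and trimmed mainly by fibroblasts. By role, given to each gene after the members were known, 14 members act in DNA synthesis, 23 in mitosis and cytokinesis and 6 are histones or other nuclear proteins. A further 9 are matrix genes, 5 are proteases or their inhibitors, 10 are signals or receptors, 7 are transcription factors, 3 are metabolic or sarcomere genes of muscle, and 17 have other roles.

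**Figure D1:**
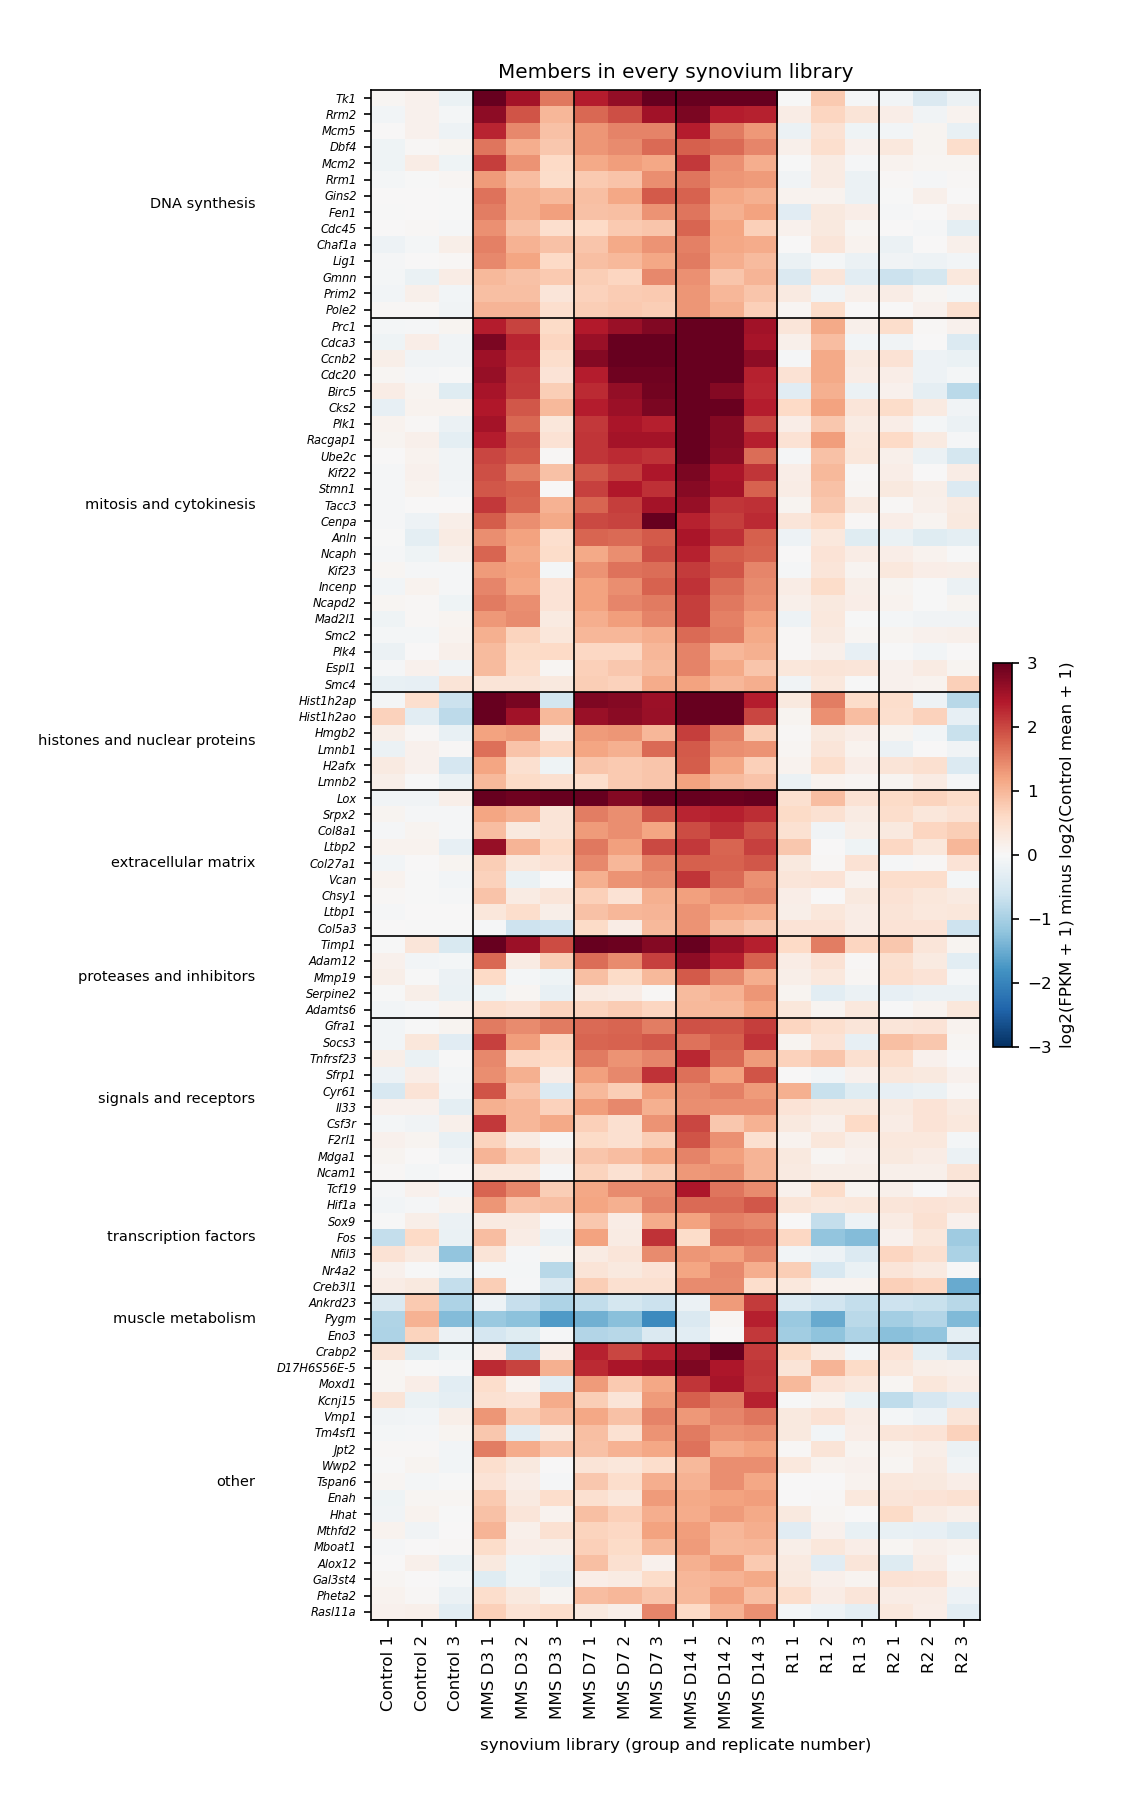
Each row is 1 of the 94 members and each column 1 of the 18 synovium libraries. Colour gives log2(FPKM + 1) minus log2(Control mean + 1), with values past 3 drawn as 3. Most rows are red in MMS D7 and MMS D14 and pale in R1 and R2, and many are red in MMS D3; the exceptions are the 3 muscle genes, which are red in MMS D14 replicate 3 above all.

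Gene lists drawn up for the tissue were set against the module. Of all 1178 genes 296 were raised in MMS D14, and 94 of these are members. The counts below rest on values that the rule used, so they only describe the members. All 25 measured genes of the mitosis list (of 117) were raised in MMS D14 and all 25 are members, Hmgb2 and Lmnb1 included, which are counted here as nuclear proteins. Of the DNA replication list, 13 of 63 were measured and 12 are members; the other one, Prim1, a primase subunit, had an L of 0.98 and missed the limit. Of the collagens 12 of 28 were measured, all 12 were raised, and 3 are members (Col5a3, Col8a1 and Col27a1). Col1a1, Col1a2 and Col3a1, the chains of the main fibrillar collagens, were raised and are not members. The same holds for the tendon list, with 6 of 10 measured, 6 raised and 0 members. Of 31 measured matrix glycoproteins and proteoglycans, 29 were raised and 3 are members (Vcan, Ltbp1 and Ltbp2). No listed adipocyte, erythroid or interferon-response gene was raised.

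Across all members, the median L was 0.94, 1.19 and 1.49 in MMS D3, MMS D7 and MMS D14, and 0.21 and 0.12 in R1 and R2. The highest group mean was that of MMS D14 in 89 members, MMS D7 in 3 (Cenpa, Sfrp1 and Fos) and MMS D3 in 2 (Lox and Csf3r). All 3 libraries lay above all 3 Control libraries for 63 members in MMS D3, 87 in MMS D7 and 90 in MMS D14. In R1 this was so for 30 members and in R2 for 21. The rule used MMS D14, R1 and R2, and the share over all 1178 genes was not counted for any group. These counts therefore only describe the members. In 15 members the mean L over R1 and R2 was below 0.

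The promoters of the mitotic members are shown because they carry the sequence features known for this class of genes. Many genes of late cell cycle hold CCAAT boxes, which the factor NF-Y binds, and a TTTGAA element called the cell cycle homology region. In RefSeq promoters of GRCm38.p6, 250 bases before to 50 after the start, 74 of 94 members had an entry. Both were searched on both strands, as CCAAT or ATTGG and TTTGAA or TTCAAA, and matches that overlap another match were kept. TTTGAA occurred in 14 of the 20 mitosis promoters found (70%), in 4 of 11 of DNA synthesis, and in 0 of 8 of the matrix genes. Its share over the promoters of all 27025 genes was 18.1%. CCAAT occurred in 70% of the mitosis promoters and 37.9% of all promoters, and both motifs together in 65% and 7.12%. The stretches below run from 180 bases before to 30 after the start, 5′ to 3′ on the gene's strand, with these motifs in capitals.
Ccnb2 (chr9:70421525-70421734, minus strand): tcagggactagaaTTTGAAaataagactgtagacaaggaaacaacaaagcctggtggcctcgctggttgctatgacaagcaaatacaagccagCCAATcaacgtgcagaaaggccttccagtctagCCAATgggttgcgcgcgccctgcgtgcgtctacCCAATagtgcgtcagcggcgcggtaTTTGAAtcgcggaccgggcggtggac
Cdc20 (chr4:118437314-118437523, minus strand): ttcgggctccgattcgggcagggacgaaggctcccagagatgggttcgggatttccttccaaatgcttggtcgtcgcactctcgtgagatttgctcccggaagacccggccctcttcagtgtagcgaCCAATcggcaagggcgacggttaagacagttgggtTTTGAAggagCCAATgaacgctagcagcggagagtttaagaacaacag
Prc1 (chr7:80294271-80294480, plus strand): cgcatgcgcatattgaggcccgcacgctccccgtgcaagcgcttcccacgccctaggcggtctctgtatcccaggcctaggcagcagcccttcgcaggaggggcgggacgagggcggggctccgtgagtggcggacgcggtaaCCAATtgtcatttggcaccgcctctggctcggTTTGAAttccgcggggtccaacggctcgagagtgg
Ube2c (chr2:164769749-164769958, plus strand): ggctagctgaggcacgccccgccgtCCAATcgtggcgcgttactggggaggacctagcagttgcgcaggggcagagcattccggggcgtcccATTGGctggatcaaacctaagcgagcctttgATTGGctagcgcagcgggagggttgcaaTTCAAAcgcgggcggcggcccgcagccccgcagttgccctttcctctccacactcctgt

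All 4 hold TTTGAA, in either reading, within 30 bases of the start, and 1 to 3 CCAAT boxes. For the S phase genes the motifs searched were those of E2F factors, TTTCCCGC, TTTGGCGC, TTTCGCGC and TTTGCCGC on both strands, which were found in 2 of 11 DNA synthesis promoters and 2.32% of all promoters. Mcm5, a subunit of the replicative helicase, is shown with its E2F matches, which overlap each other, and its CCAAT boxes in capitals. Vcan, a matrix gene with the same search, is shown beside it.
Mcm5 (chr8:75109329-75109538, plus strand): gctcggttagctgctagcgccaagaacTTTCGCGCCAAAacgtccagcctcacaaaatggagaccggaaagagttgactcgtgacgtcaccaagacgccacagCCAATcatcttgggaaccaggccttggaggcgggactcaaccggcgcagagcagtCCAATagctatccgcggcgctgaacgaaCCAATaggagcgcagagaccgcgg
Vcan (chr13:89742483-89742692, minus strand): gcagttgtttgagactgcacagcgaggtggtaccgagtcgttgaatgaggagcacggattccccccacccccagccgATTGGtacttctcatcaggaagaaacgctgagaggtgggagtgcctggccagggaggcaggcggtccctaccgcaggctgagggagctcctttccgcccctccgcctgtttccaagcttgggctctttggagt

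The Vcan stretch holds a single CCAAT box, read on the other strand, and neither of the other motifs. A match is a description of the letters and not a site. Birc5 and Tk1 lie 23.1 kb apart on chromosome 11, and Tspan6 and Srpx2 lie 7.21 kb apart on chromosome X; no other members lie within 100 kb of each other among the 93 placed in the RefSeq table.

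The mitosis genes had the highest median L of all roles in MMS D14. Their median L went from 1.48 in MMS D3 over 2.14 in MMS D7 to 2.34 in MMS D14, and was 0.37 in R1 but 0.06 in R2. Ccnb2, which encodes cyclin B2, the partner of the mitotic kinase CDK1, measured 1.71, 1.22 and 1.21 FPKM in Control. It measured 12.8, 10.2 and 2.41 in MMS D3, 15.0, 18.5 and 21.7 in MMS D7, and 22.8, 20.6 and 14.3 in MMS D14. In R1 it was at 1.34, 4.21 and 1.85, and in R2 at 2.20, 1.13 and 1.08. Every library of the MMS groups lay above Control, with MMS D3 replicate 3 the lowest of them, while R1 and R2 overlapped Control.

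Prc1, which bundles microtubules at the middle of the spindle, had 1.49, 1.55 and 1.76 FPKM in Control and 32.6, 23.4 and 13.8 in MMS D14. In R1 it measured 2.32, 4.69 and 1.88, and in R2 2.77, 1.67 and 1.84. Cdca3, a trigger of mitotic entry, went from 1.88, 2.58 and 1.92 in Control to 34.9, 26.7 and 16.4 in MMS D14, with 1.92, 2.13 and 1.34 in R2. The 3 groups of the MMS course stood clear of Control in both genes, while R2 replicates 1 and 3 of Prc1 lay above Control and those of Cdca3 did not. Ube2c, the ubiquitin-conjugating enzyme of the anaphase-promoting complex, measured 5.34, 5.82 and 4.85 in Control, 24.5, 21.8 and 5.47 in MMS D3, 57.5, 40.6 and 19.3 in MMS D14, and 6.02, 4.59 and 3.43 in R2. Stmn1, which encodes the microtubule-destabilising protein stathmin, had the highest MMS D14 mean of this role, at 12.4, 13.7 and 11.99 in Control and 90.01, 76.8 and 46.0 in MMS D14. It was at 15.0, 24.0 and 13.2 in R1 and at 15.8, 14.53 and 9.25 in R2. Both Ube2c and Stmn1 sat within or close to the Control range in MMS D3 replicate 3, and apart from it in the other MMS libraries.

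The remaining mitosis members cover each step of division. Plk1, the kinase of mitotic entry, Cdc20, the activator of the anaphase-promoting complex, and Birc5, which encodes survivin of the chromosomal passenger complex, had an L of 2.78, 2.93 and 2.91 in MMS D14. Incenp, the scaffold of that complex, had 1.79, and Cenpa, the histone of the centromere, 2.20. Mad2l1, of the spindle checkpoint, had 1.64 and Espl1, which encodes separase, 1.17. The condensin subunits Smc2, Smc4, Ncapd2 and Ncaph had 1.48, 1.103, 1.71 and 1.98. Anln, Racgap1 and Kif23, of the cleavage furrow and midzone, had 2.17, 2.77 and 1.84. Plk4, the kinase of centriole duplication, had 1.20, and Kif22, Tacc3 and Cks2, a kinesin, a spindle protein and a CDK-binding protein, had 2.496, 2.34 and 2.85. Over the role, L in MMS D14 ran from 1.103 to 3.22, and 21 of 23 genes had a higher L in R1 than in R2. R1 replicate 2 was the highest R1 library in all 23 genes. Its median log2 change from the Control mean was 0.80, against 0.15 in R1 replicate 1, R1 replicate 3 and R2 replicate 1.

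DNA synthesis genes were raised as much in MMS D3 as in MMS D7. Their median L went from 1.18 in MMS D3 and 1.09 in MMS D7 to 1.34 in MMS D14, and was 0.09 in R1 and 0.02 in R2. Tk1, thymidine kinase of the nucleotide salvage pathway, measured 1.95, 2.08 and 1.48 FPKM in Control, 24.1, 14.9 and 7.52 in MMS D3, 13.5, 16.6 and 30.3 in MMS D7, and 33.2, 23.3 and 25.4 in MMS D14. It was at 1.83, 3.88 and 1.79 in R1 and at 1.70, 1.1 and 1.51 in R2. Every MMS library lay above every Control library, and R1 replicate 2 was the one library of R1 and R2 above them.

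Rrm2 and Rrm1 encode the small and large subunits of ribonucleotide reductase, which makes deoxynucleotides. Rrm2 measured 1.46, 1.87 and 1.5 FPKM in Control, 17.4, 12.4 and 11.9 in MMS D14, and 2.02, 1.44 and 1.80 in R2. Rrm1 measured 5.47, 5.77 and 6.11 in Control, 19.8, 16.1 and 15.3 in MMS D14, and 5.91, 5.62 and 5.90 in R2. Rrm1 in R2 lay inside the Control range in all 3 libraries. The helicase subunits and loaders Mcm2, Mcm5, Gins2 and Cdc45 had an L of 1.59, 1.81, 1.37 and 1.28 in MMS D14. Prim2 and Pole2, of primase and DNA polymerase epsilon, had 1.06 and 1.05, and Fen1 and Lig1, which process and join Okazaki fragments, 1.31 and 1.23. Chaf1a, a histone chaperone at the fork, had 1.27, Gmnn, which encodes the licensing inhibitor geminin, 1.09, and Dbf4, which activates the kinase CDC7, 1.66. All 14 had all 3 libraries above all Control libraries in MMS D3, MMS D7 and MMS D14. Over all 94 members this held for 63, 87 and 90. In R2 it held for 1 of the 14, Dbf4, and for 21 of the 94. The rule used MMS D14 and R2, and the share over all genes was not counted.

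Among the histones and nuclear proteins, Hist1h2ap had the largest L of all members, 3.64 in MMS D14. It measured 10.6, 16.1 and 6.70 FPKM in Control, 117, 86.8 and 7.24 in MMS D3, and 269, 120 and 61.3 in MMS D14. In R1 it measured 13.9, 34.4 and 16.7, and in R2 16.6, 9.82 and 5.83. Hist1h2ao, at 11.04, 4.93 and 3.31 in Control and 101, 70.9 and 28.7 in MMS D14, was alike. Both encode histone H2A, their coding sequences are close to those of other H2A genes, and their separate values are therefore uncertain. Replicate 3 was the lowest library of MMS D3 and of MMS D14 for both. Hmgb2, a chromatin protein, measured 12.6, 11.4 and 9.35 in Control, 50.4, 33.7 and 19.1 in MMS D14, and 11.8, 10.4 and 6.64 in R2. H2afx, the histone variant of DNA damage foci, and the lamins Lmnb1 and Lmnb2 of the nuclear envelope had an L of 1.30, 1.54 and 1.01 in MMS D14.

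**Figure D2:**
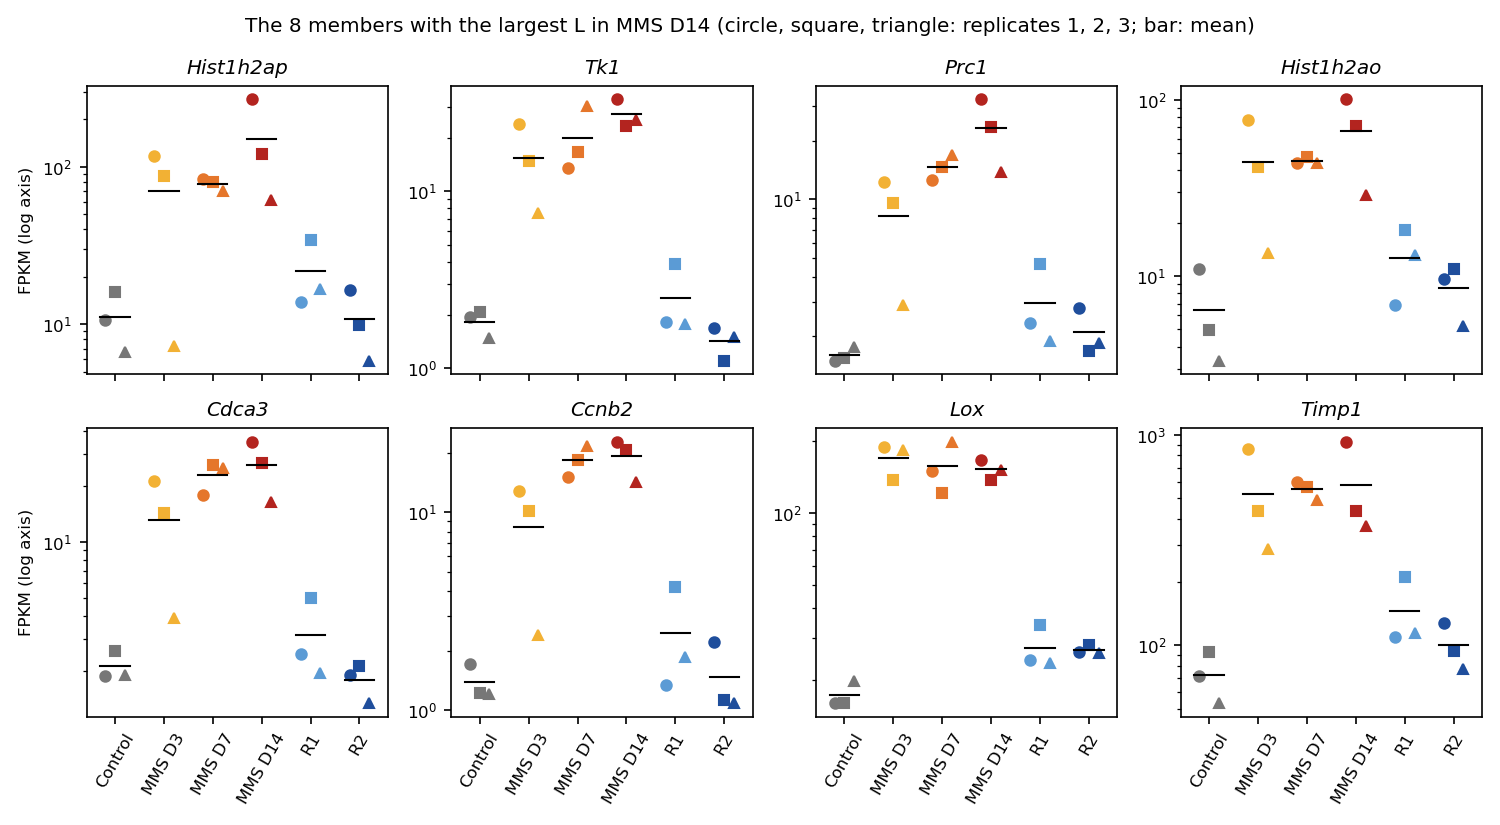
FPKM on a log axis in each synovium library for the 8 members with the largest L in MMS D14, with 1 point per library and a bar at each group mean. In MMS D3 the replicate 3 triangle lies far under the others for the 3 mitosis genes and Hist1h2ap, while Lox holds its 3 libraries between 137 and 190 FPKM.

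The matrix members had a low median L in MMS D3: it was 0.52 there, 1.29 in MMS D7 and 1.81 in MMS D14, with 0.29 left in R1 and 0.35 in R2. Lox, which encodes lysyl oxidase, the enzyme that cross-links collagen and elastin, and Ltbp2 were highest there, with an L of 3.24 and 1.69. Lox measured 15.9, 16.0 and 19.6 FPKM in Control and 190, 137 and 184 in MMS D3, 150, 121 and 199 in MMS D7, and 167, 138 and 152 in MMS D14. In R1 it measured 24.2, 33.8 and 23.6, and in R2 26.2, 27.8 and 25.7. Lox was thus near its highest level in MMS D3 already, and all 6 libraries of R1 and R2 lay above the Control range.

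The 3 collagen members are minor chains. Col5a3, of collagen V, measured 71.9, 70.8 and 71.0 FPKM in Control, 69.6, 46.0 and 47.4 in MMS D3, 107, 82.7 and 142 in MMS D7, and 184, 139 and 126 in MMS D14. In R1 it was at 95.4, 94.3 and 83.5 and in R2 at 95.4, 94.8 and 46.3. Col8a1, of the short-chain collagen VIII, had 5.49, 6.04 and 5.57 in Control, 11.6, 7.15 and 7.72 in MMS D3, 25.0, 29.3 and 24.0 in MMS D14, and 7.25, 9.48 and 10.1 in R2. Col5a3 was below all Control libraries in MMS D3 and above them in MMS D14, and R2 replicate 3 stood apart from the other R2 libraries. Col27a1, a fibrillar collagen of cartilage, had 5.45, 5.88 and 6.21 in Control, 10.4, 7.61 and 8.18 in MMS D3, 22.7, 22.4 and 24.0 in MMS D14, and 5.72, 6.01 and 8.09 in R2.

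Vcan, the large proteoglycan versican, measured 16.3, 14.9 and 14.1 FPKM in Control, 25.1, 13.1 and 15.2 in MMS D3, and 32.9, 40.2 and 42.1 in MMS D7. It reached 70.6, 51.2 and 40.9 in MMS D14, and measured 22.1, 22.1 and 14.5 in R2. Versican overlapped Control in MMS D3 and stood clear of it in MMS D7 and MMS D14. Ltbp1 and Ltbp2 encode latent TGF-beta binding proteins of the microfibrils. Ltbp1 went from 16.1, 16.6 and 16.6 in Control to 43.5, 38.7 and 36.8 in MMS D14 and 21.6, 20.6 and 21.0 in R2. Ltbp2 went from 6.40, 6.33 and 4.74 over 40.89, 12.77 and 9.35 in MMS D3 to 28.9, 22.0 and 27.3 in MMS D14 and 9.44, 7.58 and 12.7 in R2, with its highest library in MMS D3. Both sat above the whole Control range in R2. Chsy1, a chondroitin synthase, and Srpx2, a secreted sushi-repeat protein, had an L of 1.35 and 2.28 in MMS D14.

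Of the proteases and inhibitors, Timp1, the inhibitor of matrix metalloproteinases, had the highest MMS D14 mean of all members. It measured 71.3, 93.3 and 52.8 FPKM in Control, 856, 434 and 286 in MMS D3, 597, 565 and 493 in MMS D7, and 931, 437 and 368 in MMS D14. In R1 it was at 110, 211 and 114 and in R2 at 128, 94.1 and 77.3. Replicate 1 was the highest in MMS D3 and MMS D14, and all R1 libraries lay above Control. Mmp19, a metalloproteinase, measured 19.4, 16.9 and 15.2 in Control, 26.6, 16.5 and 15.6 in MMS D3, 64.3, 48.3 and 37.8 in MMS D14, and 24.8, 23.1 and 16.4 in R2. Serpine2, a serine protease inhibitor, measured 154, 177 and 135 in Control, 142, 162 and 133.74 in MMS D3, 304, 320 and 389 in MMS D14, and 132, 138 and 137 in R2. Serpine2 overlapped Control in MMS D3 and MMS D7 and stood clear of it in MMS D14. Adam12 and Adamts6, metalloproteinases of the ADAM and ADAMTS families, had an L of 2.31 and 1.05.

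The signals and receptors and the transcription factors had a lower median L in MMS D14, 1.39 and 1.37. Cyr61, a matricellular protein of the CCN family, measured 26.4, 49.7 and 35.0 FPKM in Control, 101, 107 and 90.6 in MMS D14, and 31.0, 32.8 and 37.8 in R2. Its spread inside groups was wide, at 139, 67.6 and 27.6 in MMS D3 and 78.7, 22.9 and 28.5 in R1. Socs3, the feedback inhibitor of cytokine signalling, measured 15.8, 21.8 and 13.1 in Control, 72.8, 41.9 and 26.9 in MMS D3, 54.7, 60.6 and 79.2 in MMS D14, and 17.8, 22.7 and 14.1 in R1. In R2 it was at 32.7, 30.5 and 17.7. Gfra1, a receptor for GDNF, had little spread, with 1.81, 1.98 and 2.19 in Control, 7.84, 6.99 and 7.84 in MMS D3 and 10.3, 10.1 and 11.6 in MMS D14, with 2.87, 2.96 and 2.24 in R2. Il33, an alarmin cytokine, Sfrp1, a secreted Wnt antagonist, and F2rl1, a protease-activated receptor, had an L of 1.38, 1.60 and 1.35 in MMS D14. Mdga1 and Ncam1, cell adhesion proteins, had 1.27 and 1.23.

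Csf3r, the receptor for G-CSF, measured 1.87, 1.78 and 2.34 FPKM in Control, 12.1, 5.02 and 5.58 in MMS D3, and 10.99, 4.26 and 5.15 in MMS D14. It is also a neutrophil marker. Csf3r itself and Prtn3 are the 2 of 20 listed neutrophil and mast cell markers in the table. Their sum was 13.3 to 16.9 FPKM in Control, 31.9 to 46.2 in MMS D3 and 10.3 to 16.9 in MMS D14. Prtn3 alone measured 11.4, 14.3 and 14.55 in Control, 34.1, 38.7 and 26.4 in MMS D3, and 5.89, 6.00 and 5.79 in MMS D14. In MMS D14 Prtn3 thus lay below Control, while Csf3r lay above it. The part of such cells in the value of Csf3r was not tested. Csf3r and Tnfrsf23, a decoy receptor for TRAIL, were just inside the limit on R1 and R2, with ratios of 0.246 and 0.249, after Ltbp2 with 0.244. Just outside it were Akr1b8 (0.251), Anxa8 (0.251) and Rerg (0.254). At the limit on L, Lmnb2 (1.01), Rasl11a (1.04) and Eno3 (1.04) were just inside, and Tpm1 (0.998), Prim1 (0.98) and Mlf1 (0.96) just outside.

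Among the transcription factors, Hif1a, the oxygen-regulated factor, measured 19.1, 20.0 and 21.9 FPKM in Control, 52.7, 37.7 and 39.1 in MMS D3, 68.4, 68.8 and 76.7 in MMS D14, and 26.5, 27.5 and 26.4 in R2. Its R1 and R2 libraries all lay above Control. Sox9, the master factor of cartilage cells, measured 2.47, 2.96 and 2.12 in Control, 7.11, 8.98 and 8.58 in MMS D14, 2.53, 1.14 and 2.16 in R1, and 3.16, 3.81 and 2.86 in R2. The 5 of 29 listed cartilage and bone cell markers in the table, Sox9 included, summed to 67.3 to 80.7 FPKM in Control and 68.3 to 91.1 in MMS D14. Their sum was 117 to 173 in R1 and 78.2 to 157 in R2. Inside it, Sox9 and Ibsp had an L of at least 1 in MMS D14, and Bglap, Bglap2 and Alpl did not. Nfil3, a repressor tied to the circadian clock, measured 12.3, 10.7 and 3.29 in Control, 23.6, 21.7 and 25.3 in MMS D14, and 14.3, 12.7 and 4.09 in R2. The clock output gene Dbp was at 18.4, 15.6 and 127 in Control, 16.6, 16.1 and 8.97 in MMS D14, and 19.1, 20.2 and 207 in R2, so the libraries low in Nfil3 were high in Dbp; its part in the result was not tested. Tcf19, Fos, Nr4a2 and Creb3l1 had an L of 1.88, 1.37, 1.25 and 1.18 in MMS D14, and Fos ranged from 12.4 to 148 FPKM over the 18 libraries.

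The 3 muscle genes were highest in 1 MMS D14 library. Pygm, muscle glycogen phosphorylase, measured 5.66, 24.7 and 4.10 FPKM in Control, 8.20, 11.99 and 62.1 in MMS D14, and between 2.31 and 6.14 in all libraries of the other 4 groups. Eno3, muscle enolase, measured 9.32, 11.9 and 55.1 in MMS D14, and Ankrd23, a sarcomere protein, 5.74, 17.4 and 31.6. The skeletal muscle marker Myl1, the only one of 33 listed in the table, was at 32.4, 117 and 32.9 FPKM in Control and at 27.5, 37.0 and 136 in MMS D14, with 12.4 to 20.1 in the other groups. Myl1 and Pygm were thus high in the same libraries, Control replicate 2 and MMS D14 replicate 3; the part of muscle tissue was not tested. Without MMS D14 replicate 3, all 3 genes left the module, which then held 97 genes, 88 of them from the 94.

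The other 17 members share no role. D17H6S56E-5 had the second largest L of them, 2.48 in MMS D14, and measured 7.76, 7.36 and 7.20 FPKM in Control, 39.0, 33.2 and 16.7 in MMS D3, 58.3, 44.3 and 36.2 in MMS D14, and 9.46, 8.58 and 8.38 in R2. MMS D3 replicate 3 was its lowest MMS library, and all R2 libraries lay above Control. Kcnj15, an inward rectifier potassium channel, went from 5.71, 3.46 and 3.31 to 17.0, 14.2 and 24.6 in MMS D14 and 2.06, 2.64 and 3.11 in R2, where all 3 libraries were below Control. Mthfd2, the mitochondrial enzyme of the folate cycle, also lay below all Control libraries in R2, at 3.85, 3.80 and 3.36 against 5.11, 4.27 and 4.71, and had an L of 1.12 in MMS D14. Tm4sf1, a tetraspanin-like membrane protein, measured 45.8, 46.6 and 51.0 in Control, 143, 124 and 128 in MMS D14 and 62.3, 63.5 and 77.8 in R2, above the Control range. Jpt2, Wwp2, Tspan6, Enah, Hhat, Mboat1, Alox12, Gal3st4, Pheta2 and Rasl11a had an L between 1.04 and 1.34.

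**Figure D3:**
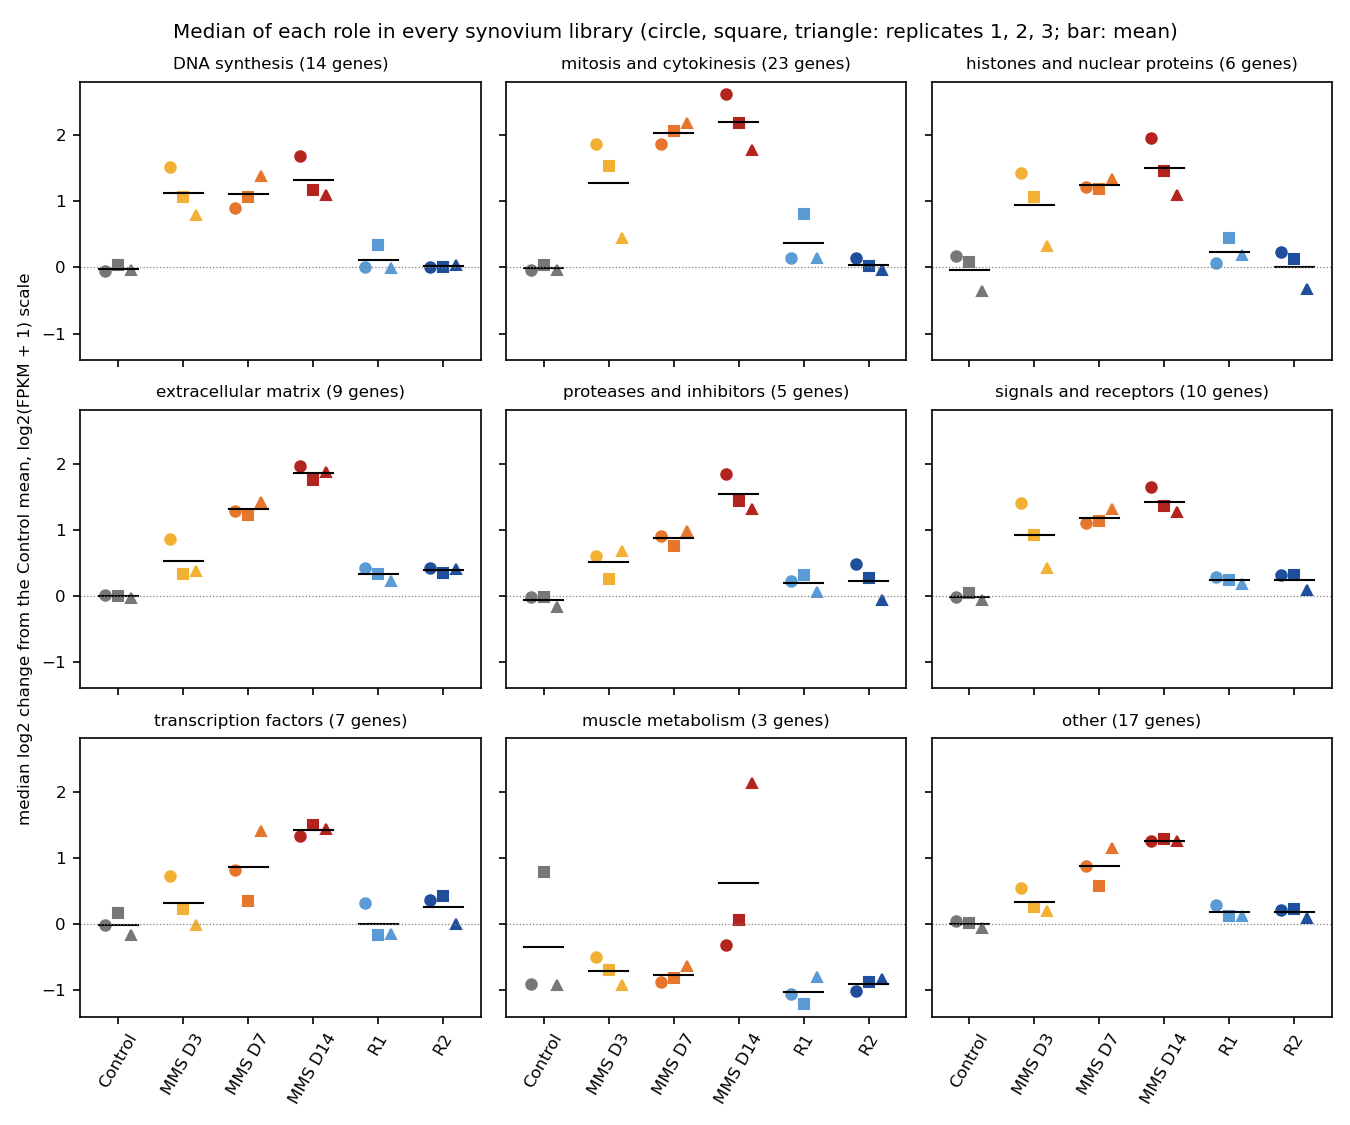
Median log2 change from the Control mean over the genes of each role, in each synovium library, with a bar at the mean of the 3 libraries. MMS D3 replicate 3 was low for mitosis (0.44, against 1.87 and 1.54) and R1 replicate 2 high (0.80, against 0.15 and 0.15). Matrix genes rose from MMS D3 over MMS D7 to MMS D14 and were lower in R1 and R2. Their MMS D3 replicate 1 was high (0.86, against 0.33 and 0.38). Muscle genes rested on MMS D14 replicate 3.

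The rise was tested in MMS D3 and MMS D7, which the choice of members did not use, although both comparisons share the Control libraries with it. In MMS D3 against Control, 67 of 94 members were higher and 0 lower at an adjusted p under 0.05 in limma, on the log2(FPKM + 1) scale. Over all 1178 genes tested, 16.3% were higher and 39.6% lower. The 202 raised genes that were no members gave 104 higher and 5 lower. By role, all 14 DNA synthesis genes and 22 of 23 mitosis genes rose in MMS D3; the other mitosis gene, Smc4, had a log2 change of 0.39 (adjusted p = 0.116, limma). Of the matrix genes 7 of 9 rose, of the signals and receptors 7 of 10, and of the transcription factors 2 of 7, Hif1a and Tcf19. Lox changed most, by 3.23 ± 0.19 (log2 change ± SE, adjusted p = 3.0e-09), and was higher in 3 of 3 libraries. Without MMS D3 replicate 1, 52 members rose, with 18 mitosis genes and 3 of the 9 matrix genes (Lox, Ltbp2 and Srpx2). The calls of Col8a1, Col27a1, Ltbp1 and Chsy1 ended there, as did those of Hist1h2ap, Hmgb2, Ube2c and Stmn1. Over all alternatives adjusted p reached 0.147, 0.111 and 0.160 for the first 3 of these, and 0.209, 0.109 and 0.0856 for Hist1h2ap, Ube2c and Stmn1. The matrix calls were also 3 without Control replicate 1 and with only the 2 groups in the fit, and 4 without Control replicate 2 or replicate 3. All 14 DNA synthesis genes were called in each of these fits.

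In MMS D7 against Control, 87 of 94 members rose and 0 fell, where 24.1% of all genes rose and 61.6% fell. The 202 other raised genes gave 186 higher. All 43 members of DNA synthesis, mitosis and the nucleus rose, as did all 9 matrix genes and all 10 signals and receptors. The 7 that did not pass were the 3 muscle genes, Serpine2 (log2 change 0.18, adjusted p = 0.264) and the factors Nfil3, Nr4a2 and Creb3l1 (0.83, 0.37 and 0.64). Without the 5 libraries that stood apart, 71 members rose in MMS D3 and 79 in MMS D7, and Pygm fell in both (log2 changes of -1.23 and -1.41, adjusted p = 0.031 and 0.0129). The calls that ended without them were those of Kcnj15 and Mthfd2 in MMS D3, and of Col5a3, Csf3r, Cyr61, Fos, Gal3st4, Rasl11a, Sox9 and Wwp2 in MMS D7, with an adjusted p of 0.102 for Sox9. The calls of Col5a3, Csf3r, Cyr61 and Rasl11a in MMS D7 also ended when 1 library was left out, with adjusted p up to 0.191, 0.0961, 0.143 and 0.318. So did those of Alox12, F2rl1, Fos, Gal3st4, H2afx, Kcnj15 and Wwp2.

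The comparison of MMS D7 with MMS D3 uses no library that chose the members. Of 94 members 19 rose and 0 fell, and 36 had an unadjusted p under 0.05. Over all genes 12.1% rose and 18.3% fell. Among the 202 raised genes that were no members, 111 rose and 0 fell. The matrix held the largest share of its genes, 6 of 9: Vcan, Col5a3, Col27a1, Col8a1, Srpx2 and Ltbp1. Of the mitosis genes 4 of 23 rose (Ccnb2, Cenpa, Kif23 and Anln), all 23 had a positive change, and the median was 0.74. Of the DNA synthesis genes 0 of 14 passed, 7 changed up and 7 down, and the median was -0.01.

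The largest change was in Crabp2, which encodes a carrier of retinoic acid. It measured 7.18, 3.88 and 4.72 FPKM in Control, 6.16, 2.62 and 6.21 in MMS D3, 30.01, 24.2 and 29.8 in MMS D7, and 38.1, 51.1 and 25.7 in MMS D14. In R1 it was at 8.30, 6.57 and 4.93 and in R2 at 7.35, 4.14 and 3.04. Crabp2 was inside or below the Control range in MMS D3 and above every library of both groups in MMS D7. The change between the MMS groups was 2.34 ± 0.32 (log2 change ± SE, adjusted p = 0.000308), with every MMS D7 library above every MMS D3 library. Moxd1, a copper-dependent monooxygenase, measured 2.89, 1.92 and 1.15 in MMS D3, 5.53, 3.66 and 4.99 in MMS D7, and 10.9, 13.8 and 10.7 in MMS D14, against 1.81, 2.09 and 1.18 in Control (0.97 ± 0.22, adjusted p = 0.0056, and 0.0626 without the 5 libraries that stood apart). Vcan changed by 1.11 ± 0.23 (adjusted p = 0.00361), Ccnb2 by 1.25 ± 0.40 (adjusted p = 0.0284) and Col5a3 by 1.001 ± 0.26 (adjusted p = 0.0105).

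The calls moved with the libraries and the fit, from 0 to 19 of the 23 mitosis genes and from 3 to 8 of the 9 matrix genes. Without MMS D3 replicate 3, 8 members rose, among them 5 matrix genes and 0 mitosis genes, and the median change of the mitosis genes was 0.30 in place of 0.74. The calls of Srpx2, Mmp19, Ncam1, Tm4sf1, Pheta2, Tspan6 and Mboat1 ended there with those of the 4 mitosis genes. Without the 5 libraries that stood apart, 8 members rose, again with 5 matrix genes and 0 mitosis genes, and the DNA synthesis median was -0.32. The calls that ended were the same but for Moxd1, which was lost, and Pheta2, which was called. Without MMS D7 replicate 3, 9 rose, with 5 matrix and 0 mitosis genes, and with only the 2 groups in the fit 6 rose, with 3 matrix and 0 mitosis genes. Without MMS D3 replicate 1, 49 rose, with 8 matrix and 19 mitosis genes. The mitosis genes called were 12 with the replicate block, 13 with a term for the 5 libraries and 8 with centred libraries, with 6 matrix genes in each. Vcan, Col27a1, Crabp2 and Gal3st4, a sulfotransferase of glycans, were called in all 14 alternatives run for this comparison. The difference between the matrix and the DNA synthesis genes was not tested. Centring each library on its median moved the median of all genes from -0.22 to -0.07, the genes called higher and lower from 142 and 216 to 190 and 112, and the members called higher from 19 to 31, with 0 lower in both.

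**Figure D4:**
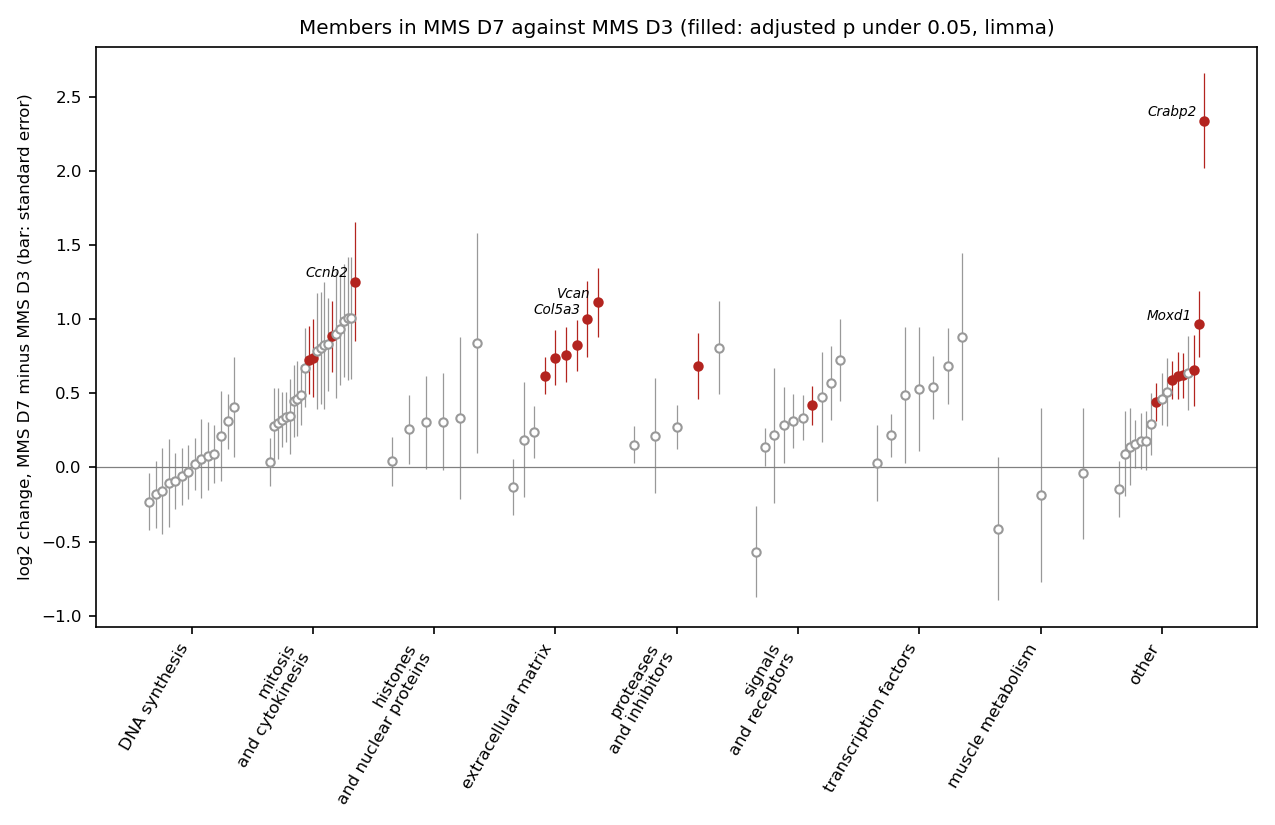
Log2 change of each member in MMS D7 against MMS D3 with its standard error, by role, on the log2(FPKM + 1) scale, with filled points for an adjusted p under 0.05. The DNA synthesis genes lie around 0, all 23 mitosis genes lie above 0, and Crabp2 stands apart at 2.34.

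The R1 and R2 libraries both entered the rule, so their difference is given as a description, with no test. Sox9 was higher in R2 than in R1 by 0.56 on the log2 scale, the largest positive difference among the 94 members. The largest negative one was -0.95, for Hist1h2ap. The median of R2 minus R1 over members was -0.12, with 63 of 94 lower in R2, and over all genes -0.0043, with 600 of 1178 lower. Of the mitosis genes, 21 of 23 were lower in R2, with a median of -0.25. In all 23, R1 replicate 2 was the highest R1 library.

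The cartilage table lists 17 of the 94 members, in a deposited signal whose unit is not stated. It was made separately, so levels are compared only within it. Tests there use no value that chose the members. With 2 libraries a group, each result rests on a variance shared over 7 groups. In MMS D3 against Control 2 members rose and 3 fell, where 23.8% of all genes were called. In MMS D7 3 rose and 3 fell (22.4% of all genes), and in MMS D14 4 rose and 4 fell (53.5%). In MMS D28 7 rose and 10 fell, where 97.3% of all genes were called, so that count says little about the members. In R1 5 rose and 5 fell (69.2%), and in R2 0 were called, with 0.747% of all genes and 4 members at an unadjusted p under 0.05. These shares are close to those of all genes, and members went both ways in cartilage.

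Socs3, Mmp19 and Vmp1 rose in cartilage as in synovium. Socs3 measured 11.8 and 11 in Control, 18.8 and 16.0 in MMS D3, 25.4 and 21.4 in MMS D7, 23.9 and 20.9 in MMS D14, 20.6 and 21.9 in MMS D28, 15.8 and 14.2 in R1, and 11.49 and 11.2 in R2. Its log2 change was 0.92 in MMS D14 (adjusted p = 0.000264) and -0.01 in R2. Mmp19 measured 1.66 and 1.75 in Control, 2.03 and 1.84 in MMS D3, 3.99 and 2.86 in MMS D7, 7.16 and 5.14 in MMS D14, 3.95 and 3.73 in MMS D28, and 2.51 and 2.23 in R2 (1.39 in MMS D14, adjusted p = 3.12e-05). Both had come down in R2 in this table too, with Socs3 inside the Control range and Mmp19 above it. Vmp1, an endoplasmic reticulum protein of autophagy, measured 19.7 and 20.7 in Control, 35.1 and 33.8 in MMS D14, 37.0 and 38.7 in MMS D28, and 22.6 and 21.9 in R2. In synovium Vmp1 went from 18.9, 19.4 and 23.5 FPKM in Control to 52.7, 58.3 and 65.2 in MMS D14 and 19.8, 18.5 and 26.9 in R2.

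Nfil3, Smc2 and the histones rose in MMS D28 cartilage, where 97.3% of all genes were called. The call of Hist1h2ap ended without Control replicate 2 or MMS D28 replicate 2, with adjusted p up to 0.0934 (limma). Nfil3 measured 8.43 and 8.41 in Control, 7.84 and 9.25 in MMS D3, 13.8 and 13.8 in MMS D14, and 20.9 and 13.9 in MMS D28 (0.94, adjusted p = 0.000824). Hist1h2ao measured 635 and 571 in Control, 517 and 687 in MMS D3, 1096 and 1191 in MMS D28, and 579 and 633 in R2 (0.92 in MMS D28, adjusted p = 0.000646). Smc2, the condensin subunit and the only mitosis member in this table, went from 13.7 and 14.2 in Control to 22.2 and 20.9 in MMS D28 (0.59, adjusted p = 0.00492). No library of MMS D28 overlapped Control in Nfil3, Hist1h2ao and Smc2, and the share over all genes was not counted.

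Sox9 and Rasl11a, a small GTPase, went the other way. Sox9 measured 30.04 and 23.4 in Control, 34.3 and 34.7 in MMS D3, 20.3 and 14.9 in MMS D14, and 11.6 and 16.3 in MMS D28, and fell in MMS D14 (-0.58, adjusted p = 0.0423) and MMS D28 (-0.90, adjusted p = 0.00249). The MMS D14 call was lost without Control replicate 1 or MMS D14 replicate 2, with the replicate block, and when libraries were centred, with adjusted p up to 0.287. Rasl11a measured 3.84 and 3.10 in Control, 1.94 and 1.48 in MMS D28, and 1.51 and 1.09 in R1 (-0.96 in R1, adjusted p = 0.00233). Moxd1, Srpx2, Tspan6, Adamts6 and Nr4a2 fell in MMS D28, by 0.76, 0.58, 0.53, 0.55 and 0.85 on the log2 scale. Nr4a2 measured 1.27 and 4.09 there. The calls of these 5 genes all ended without Control replicate 1, with an adjusted p of 0.0641 for Moxd1 (limma).

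In the muscle genes 1 Control library of cartilage was high. Pygm measured 9.68 and 37.8 in Control and between 4.01 and 7.55 elsewhere, and Eno3 10.1 and 32.6 in Control. Without Control replicate 2 the lower calls of Eno3 in MMS D7, MMS D14, MMS D28 and R1 ended, with adjusted p up to 0.354. Those of Ankrd23 in MMS D3, MMS D7, MMS D14 and MMS D28 ended too, as did those of Pygm in MMS D3 and MMS D7. In MMS D7 cartilage the higher calls of Vmp1 and Mmp19 ended in at least 1 fit with a library left out, with adjusted p up to 0.236 and 0.0663 (limma). In MMS D3 cartilage each of the 5 calls (Vmp1, Socs3, Pygm, Ankrd23 and Nr4a2) ended in at least 1 fit with a library left out, with adjusted p up to 0.133 for Vmp1 and 0.1004 for Socs3. In R1 cartilage this was so of Mmp19, Vmp1, Socs3, Smc2, Adamts6 and Eno3, while Nfil3, Rasl11a, Pygm and Ankrd23 were called in all alternatives run.

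**Figure D5:**
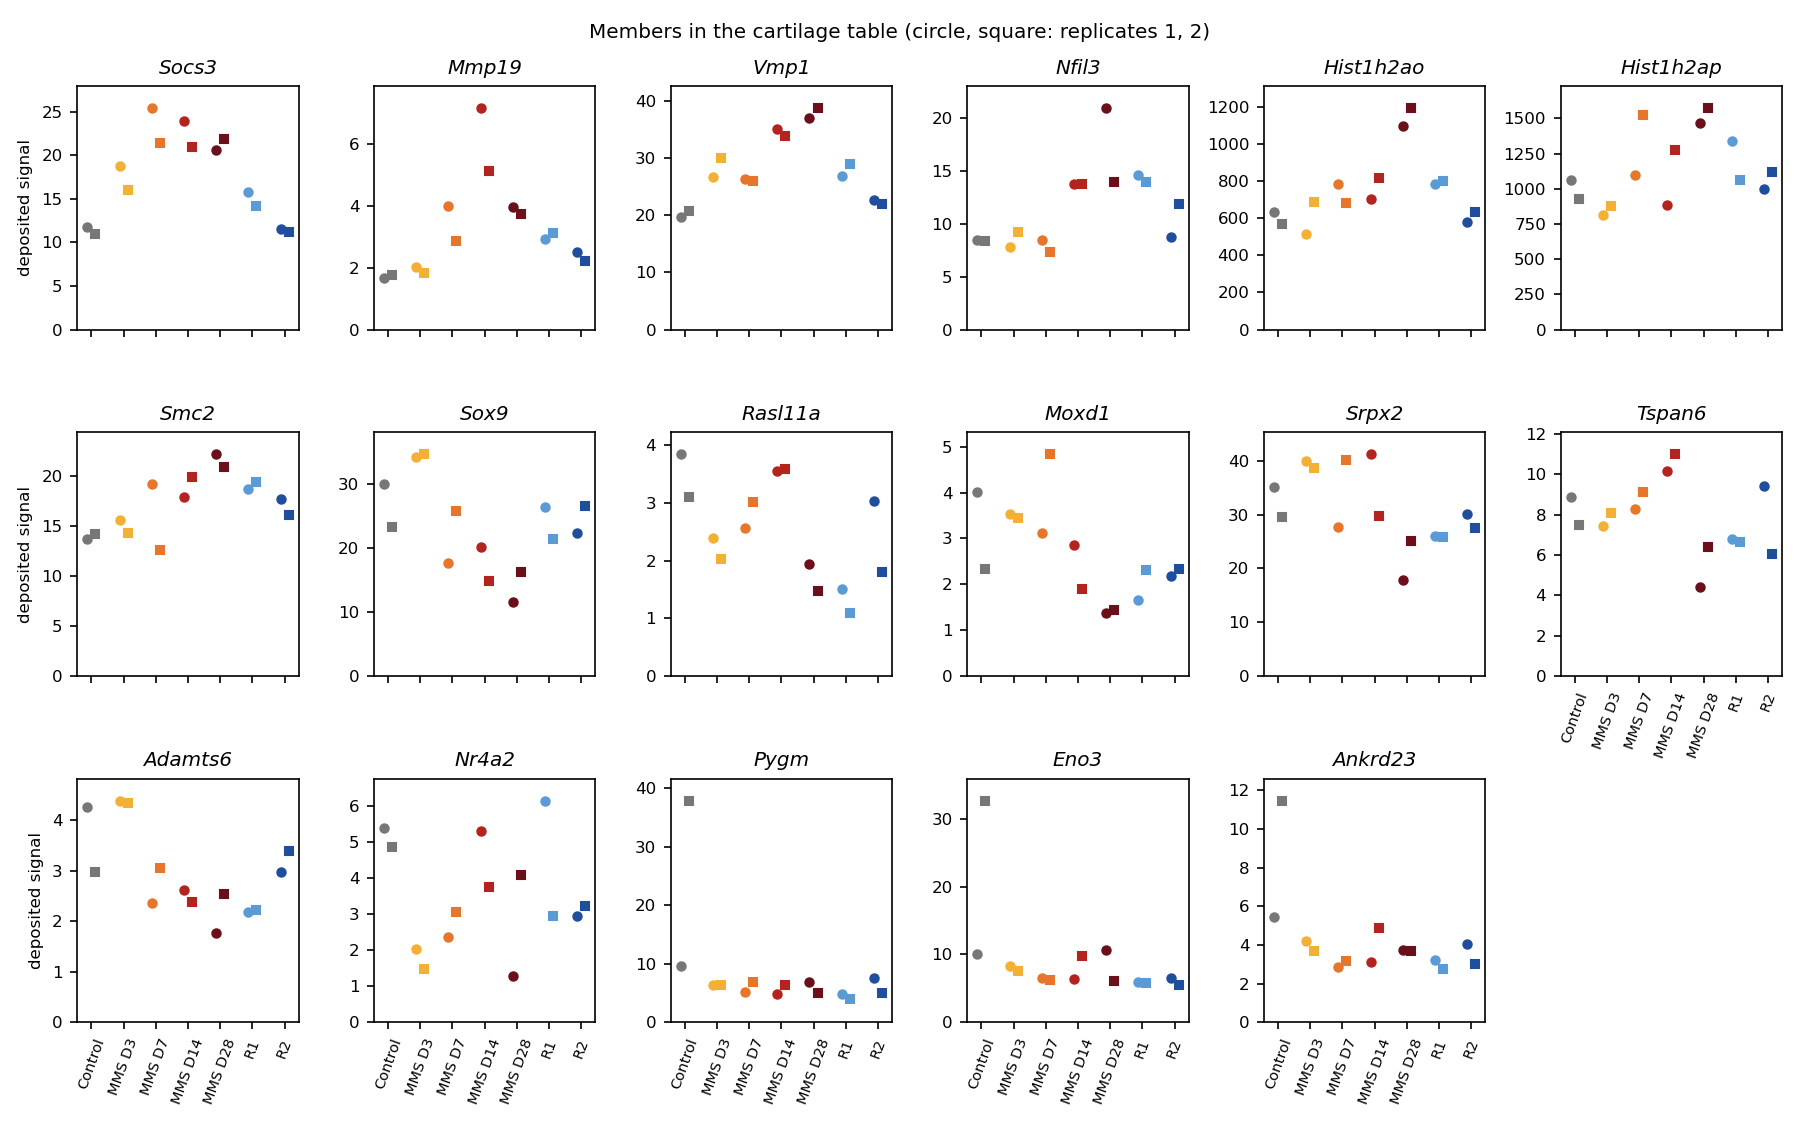
Deposited signal (linear axis from 0) of the 17 members in each cartilage library, with 1 point per library. Socs3, Mmp19 and Vmp1 have their highest value in MMS D7, MMS D14 and MMS D28, in that order, and are low in R2, Sox9 is lowest in MMS D28, and Pygm, Eno3 and Ankrd23 are high in Control replicate 2 alone.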

How the data were processed

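RNA was measured in bulk synovium (18 libraries) and cartilage (14 libraries). Per the submitters' processing notes, reads were aligned with HISAT2 to mm10; per the labels' protocols, RNA was extracted with Trizol and libraries followed a BGI protocol. The authors deposited FPKM for 1178 synovium genes and a normalised signal of unstated unit for 1606 cartilage genes; how these genes were selected is not given in the sources used here. No value is 0, the lowest are 0.55 and 0.5, and the tables hold no counts, so depth is unknown.

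Values were taken to log2(value + 1) and fitted in limma 3.58.1 (R 4.3.3, trend) with all groups of a tissue, with Benjamini-Hochberg adjustment over all genes of the table and a limit of 0.05; a filter at 1 in the mean removed no gene. The fit was tested on simulated data. Python 3.11.15, pandas 2.3.3 and numpy 2.4.6 made the summaries. The members, gene lists and roles were chosen with earlier results of these data known. Values in every library were given for the 8 members with the largest L, the 3 highest of each list, the largest changes between MMS D7 and MMS D3, up to 5 cartilage members and those at the limits, and for a few others chosen after their values were seen.

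Replicate numbers are shared across groups. Same-numbered libraries of MMS D3 and Control deviated together (correlations of 0.13, 0.13 and 0.40), which counts as paired. In no other tested synovium comparison did all 3 pass 0.1. Alternatives covered the pseudocount, centring, the replicate block, 2-group fits, single libraries and, added after seeing the data, the 5 libraries set apart.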

Additional observations from a re-analysis of the deposited data

Results flagged for a closer look

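In MMS D7 against MMS D3, the 2 groups of the course differed in 19 members by limma's test, all higher in MMS D7. Crabp2, the retinoic acid carrier, changed most, by 2.34 (log2). The matrix genes Vcan, Col5a3, Col27a1, Col8a1, Srpx2 and Ltbp1 changed by 1.11, 1.001, 0.82, 0.76, 0.74 and 0.62. The mitosis genes Ccnb2, Cenpa, Kif23 and Anln changed by 1.25, 0.88, 0.74 and 0.72, and of these 4, 0 were called without MMS D3 replicate 3. Mmp19, a metalloproteinase, and Ncam1, an adhesion protein, changed by 0.68 and 0.42. Moxd1, Tm4sf1, Pheta2, Tspan6, Gal3st4 and Mboat1 changed by 0.97, 0.65, 0.62, 0.62, 0.59 and 0.44. Of the 19, 8 were called without MMS D3 replicate 3 (Crabp2, Vcan, Col5a3, Col27a1, Col8a1, Ltbp1, Moxd1 and Gal3st4) and 8 without the 5 libraries that stood apart (Pheta2 in place of Moxd1).

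For 6 of the 17 members measured in cartilage, all libraries of a group left their own Control range in opposite directions in the 2 tissues. This did not hold in every group. Cartilage has 2 libraries per group, and the share over all genes was not counted. The difference between tissues was not tested. In cartilage, MMS D14 changed Adamts6 by -0.39 and Sox9 by -0.58, while the choice of members fixed a higher value in synovium. The cartilage change of Nr4a2 was -0.73 in MMS D7, and that of Rasl11a was -0.47 in MMS D3 and -0.23 in MMS D7. In R1 it was -0.47 for Moxd1 and -0.30 for Srpx2, where the rule used the synovium values.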

How the results depend on the processing

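Of 252 alternatives to 21 counts, 218 stayed within 1.5 times the count in the main fit. The counts of R2 against R1 are among these but are not given as a result, because the rule used those libraries. Of 1422 alternatives to 113 results on named genes, 1264 kept direction and call, 158 lost the call and 0 reversed. The 19 members higher in MMS D7 than MMS D3 became 31 with centred libraries, 32 with the replicate block, 6 with the 2 groups alone, 8 without the 5 libraries set apart, 35 with a term for them, and 8 to 49 with 1 library left out; numbers did not pair these groups (correlations of -0.07, 0.43 and 0.08). The block left the count in MMS D3 against Control within 1.5 times. Without the 5 libraries, 1 member was lower in MMS D3 and in MMS D7 (Pygm), where the main fit called 0. Left-out libraries gave 0 to 1 lower in MMS D7. In cartilage they gave 0 to 1 higher and 0 to 3 lower in MMS D3, 1 to 2 higher and 0 to 3 lower in MMS D7, 2 to 3 lower in MMS D14, 5 to 9 lower in MMS D28, 1 to 3 higher in R1 and 0 to 3 lower in R2; 5 were lower in MMS D3 with those groups alone. The module held 58 genes at a ratio of 0.15, 143 at 0.35, 26 at an L of 2, and 82 to 100 with 1 library left out, with 63 of 94 kept throughout. The causes were not tested. Depth is unknown, so no limit from counting can be given.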
